A study of Homo sapiens with 17 samples.

Results

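FOSL2 binding was compared in A549 cells with and without induction of A-Fos, from the 2 peak lists without doxycycline and the 2 with it. Peaks on chromosomes 1 to 22 and X that shared at least 1 bp were joined into regions, so that the 67556 peaks of the 4 lists gave 56430 regions. The series holds 17 chromatin immunoprecipitation sequencing (ChIP-seq) samples, 14 of them with a peak list, and these 4 libraries are the ones with the FOSL2 target. A549 is an established human lung carcinoma line. In the line used here, A-Fos had been integrated with piggyBac, a DNA transposon, and both groups carry it. The group without doxycycline was left untreated, and the other group received 1 µg/mL doxycycline and was fixed 48 h later. The labels do not say whether the line is 1 clone or a pool. Doxycycline was not given here to cells without A-Fos, so A-Fos and doxycycline cannot be told apart, and A-Fos itself was not measured. The antibody is labelled Fra2, another name of FOSL2. The labels call the libraries biological replicates and give the same number of paired-end reads of 50 bp for each, without saying whether cultures were separate. No RNA was measured, so markers of the cell line were not checked.

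FOSL2 is a FOS family subunit of AP-1, a transcription factor made of FOS and JUN proteins paired through leucine zippers. The pair binds the letters TGACTCA or close variants of them, mostly at enhancers, and growth factor and stress kinases raise its activity. A-Fos keeps the FOS leucine zipper and carries an acidic stretch in place of the DNA-binding part, so that it pairs with JUN proteins and the pair cannot bind DNA. In lung epithelium and its carcinomas AP-1 is known for genes of wound response, matrix remodelling and inflammation.

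The promoter windows of 6 genes are printed to show what windows under some of the FOSL2 regions hold. Each runs from 250 bases before to 50 after a gene start in RefSeq (GRCh38.p14), is written 5′ to 3′ along the gene's strand, and has every TGANTCA in capitals. TGANTCA reads as the same motif on both strands. MBNL2 (chr13:97141584-97141883, plus strand) and SPRED2 (chr2:65366729-65367028, minus strand) overlapped the strongest regions, among those at a promoter window, that were called in both libraries without doxycycline and in neither with it. EMP3 (chr19:48325749-48326048, plus strand) overlapped such a region too, and its window held no TGANTCA. The summit of that region lay outside the window, where the motif was not searched. FOSL2's own promoter (chr2:28392608-28392907, plus strand) and that of CXCL8 (chr4:73740319-73740618, plus strand) were chosen after their values were seen. The same holds for PFKM (chr12:48122397-48122696, plus strand), which overlapped a region called only in the second library with doxycycline.
MBNL2: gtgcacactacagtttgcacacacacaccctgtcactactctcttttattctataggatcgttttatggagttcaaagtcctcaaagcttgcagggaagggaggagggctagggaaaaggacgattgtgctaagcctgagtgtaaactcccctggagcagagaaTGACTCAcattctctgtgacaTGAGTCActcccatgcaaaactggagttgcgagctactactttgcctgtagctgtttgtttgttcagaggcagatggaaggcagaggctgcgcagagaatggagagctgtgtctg
SPRED2: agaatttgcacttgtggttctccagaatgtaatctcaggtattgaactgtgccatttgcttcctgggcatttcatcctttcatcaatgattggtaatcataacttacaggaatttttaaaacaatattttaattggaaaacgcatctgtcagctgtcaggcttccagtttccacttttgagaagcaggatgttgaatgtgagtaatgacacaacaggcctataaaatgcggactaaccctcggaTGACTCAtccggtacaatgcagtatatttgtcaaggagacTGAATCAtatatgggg
FOSL2: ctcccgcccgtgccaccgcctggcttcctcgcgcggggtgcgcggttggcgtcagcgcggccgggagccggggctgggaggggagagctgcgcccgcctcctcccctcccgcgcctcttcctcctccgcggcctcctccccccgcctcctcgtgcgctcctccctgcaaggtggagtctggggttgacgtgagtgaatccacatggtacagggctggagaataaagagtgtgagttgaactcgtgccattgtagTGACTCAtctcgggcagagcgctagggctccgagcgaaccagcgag
CXCL8: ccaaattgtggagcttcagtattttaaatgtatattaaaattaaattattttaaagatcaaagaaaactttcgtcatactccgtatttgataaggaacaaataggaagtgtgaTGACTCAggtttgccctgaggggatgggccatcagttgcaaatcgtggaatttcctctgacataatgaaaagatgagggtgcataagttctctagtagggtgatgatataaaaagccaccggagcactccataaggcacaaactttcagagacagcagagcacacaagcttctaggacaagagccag
EMP3: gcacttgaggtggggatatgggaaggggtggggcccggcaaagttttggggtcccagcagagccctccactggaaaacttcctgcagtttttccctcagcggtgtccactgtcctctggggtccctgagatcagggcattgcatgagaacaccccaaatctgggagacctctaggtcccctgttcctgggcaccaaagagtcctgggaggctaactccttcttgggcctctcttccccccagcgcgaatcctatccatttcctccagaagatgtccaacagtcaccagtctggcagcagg
PFKM: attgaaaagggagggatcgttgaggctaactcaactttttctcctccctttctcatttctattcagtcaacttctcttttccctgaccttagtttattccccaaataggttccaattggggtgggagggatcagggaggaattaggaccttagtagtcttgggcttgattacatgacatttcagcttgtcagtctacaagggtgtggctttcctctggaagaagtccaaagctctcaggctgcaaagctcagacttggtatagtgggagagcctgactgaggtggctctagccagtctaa

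Fewer and weaker FOSL2 peaks were called with doxycycline. The lists without doxycycline held 45586 and 14842 peaks, and those with it held 1854 and 5274. The covered length was 18870 and 4870 kb without doxycycline and 560 and 1595 kb with it. Both lists with doxycycline lay below both lists without it, although the 2 untreated libraries also differed from each other. The mean number of peaks was 30214 ± 21739 (SD, n = 2) without and 3564 ± 2418 (SD, n = 2) with doxycycline, a ratio of 0.118, and the ratio of covered lengths was 0.0908. Without the first or the second untreated library the ratio of peak numbers was 0.24 or 0.0782, and without the second library with doxycycline it was 0.0614. The ratio of covered lengths was then 0.221, 0.0571 and 0.0472. Fewer cells with bound FOSL2 and less binding per cell cannot be told apart in such lists.

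No peak above 10-fold enrichment was in the lists with doxycycline. The fold enrichment of a peak over background, as the authors' caller gave it, had a median of 6.395 and 4.50 in the libraries without doxycycline and of 3.509 and 3.513 in those with it. The highest peak reached 148 and 45.9 without doxycycline, and 6.57 and 6.78 with it. Enrichment above 10 was found at 13968 and 1450 peaks without doxycycline and at 0 peaks in either library with it. Above 5 lay 63.7% and 41.9% of the peaks without doxycycline, and 0.917% and 2.54% with it. Peaks with a −log10 q of at least 10 numbered 30181 and 6778 without doxycycline, and 7 and 5 with it.

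**Figure D1:**
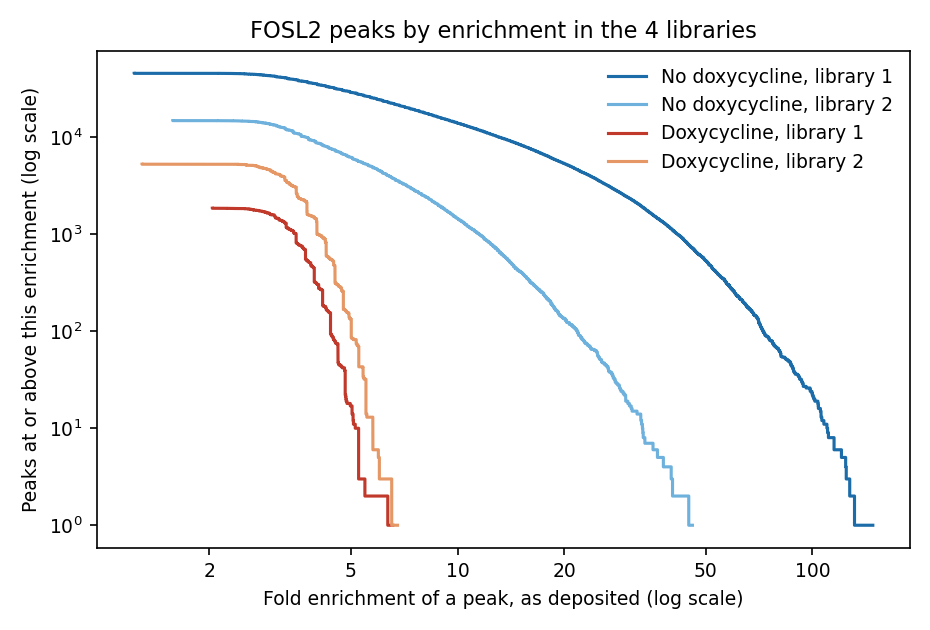
Number of FOSL2 peaks (vertical axis, log scale) at or above each fold enrichment over background (horizontal axis, log scale), 1 line per library. The untreated libraries reached 148 and 45.9, and those with doxycycline 6.57 and 6.78.

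Smaller shares of the peaks called with doxycycline lay in or at genes. Of the peaks, 47.1% and 45.9% had their summit inside a protein-coding gene without doxycycline, against 42.4% and 43.0% with it. Within 1 kb of either end of a gene lay 3.34% and 2.39% of peaks without doxycycline, and 1.24% and 1.37% with it. The median distance to the nearest gene end was 39.0 and 44.8 kb without doxycycline and 59.6 and 60.8 kb with it. In each of these measures the groups did not overlap. Over 8 measures (number, covered length, width, median enrichment, median −log10 q and the 3 on gene position), each exact permutation test over libraries (two-sided) gave p = 0.3333, also after Benjamini-Hochberg adjustment. This is the smallest p that 2 against 2 libraries allow. The means differed by −3.77 percentage points inside genes and by −1.56 points at gene ends (with minus without doxycycline), both larger than the SD of either group. Within 5 kb of a gene end the difference was −4.80 points. Regions called only in the second untreated library also had low shares, with 41.2% inside a gene and 1.11% within 1 kb of an end. Their median distance to a gene end was 71.2 kb. Regions called only in the first untreated library had 46.8%, 3.48% and 39.5 kb. The part of peak strength in these measures was not tested.

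Most regions belonged to 1 library. Of the 56430 regions, 45601 (80.8%) were called in a single list, 35101 of them in the first untreated library. Regions called in both untreated libraries and in neither with doxycycline, named lost regions here, numbered 10030, which is 17.8% of all regions. Regions called in all 4 lists, named kept, numbered 10 (0.0177%). Regions called in both libraries with doxycycline and in neither without it, named gained, numbered 25 (0.0443%). Of the 10191 regions called in both untreated libraries, 161 (1.58%, 95% exact interval 1.35% to 1.84%) were called in any library with doxycycline. Intervals here cover counting error over regions alone. Of the 7068 regions called in any library with doxycycline, 6294 (89.1%) had no call without it. Without the second untreated library 45139 regions met the definition of a lost region. Without the first or the second library with doxycycline 4705 or 1615 met that of a gained one and 111 or 59 that of a kept one, and without either untreated library 19 or 17 were kept.

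**Figure D2:**
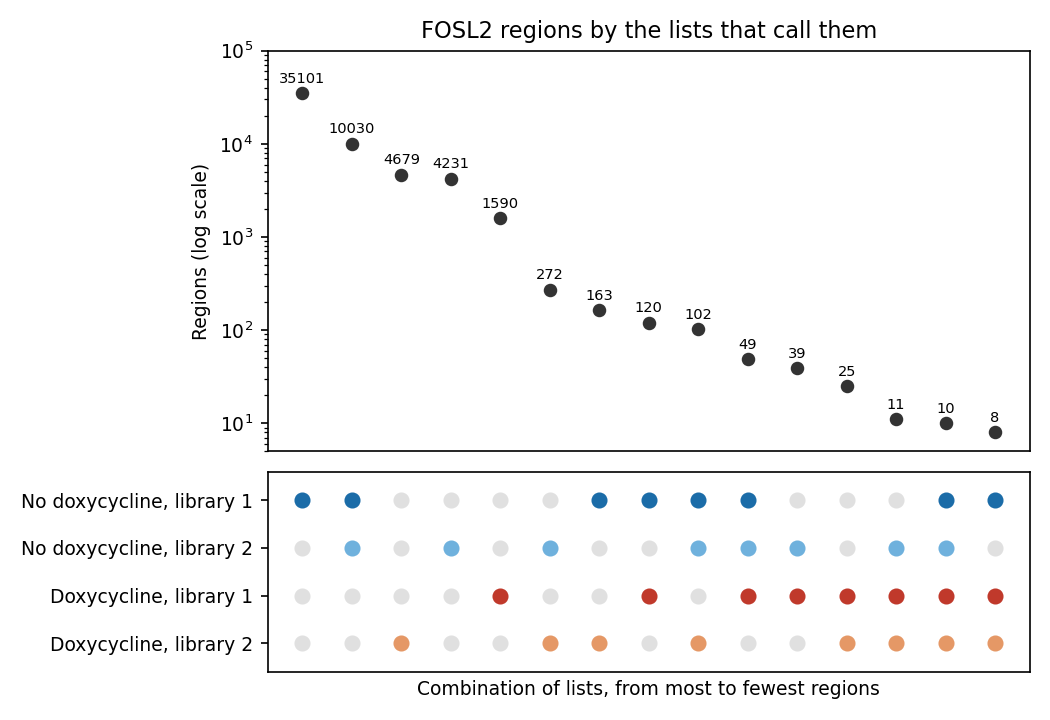
Number of FOSL2 regions (vertical axis, log scale) for each of the 15 combinations of lists that call them, with filled circles below for the calling libraries. Regions of both untreated libraries alone numbered 10030 and regions of all 4 libraries 10.

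Stronger peaks recurred more often between the untreated libraries, but calls with doxycycline were rare at every strength. In the strongest decile of first-library peaks by enrichment, 94.1% were called in the second untreated library, against 2.79% in the weakest decile. In the same strongest decile, 0.658% were called in the first and 0.746% in the second library with doxycycline. From the other side, all peaks in the upper 3 deciles of the second untreated library were called in the first. The 2 libraries with doxycycline shared little: 53 of 1854 peaks of the first (2.86%) were called in the second, and 52 of 5274 peaks of the second (0.986%) in the first. Of the first untreated library's peaks 22.4% were called in the second, and of the second's 69.3% in the first.

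**Figure D3:**
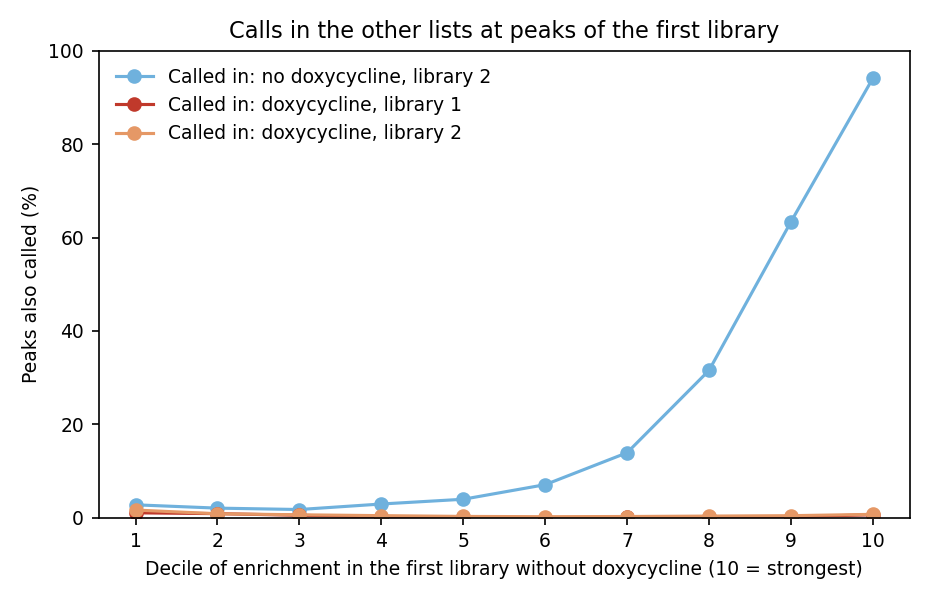
Share of the peaks of the first untreated library that were also called in each other library (vertical axis, percent), by decile of enrichment in the first library (horizontal axis, 10 the strongest). The share reached 94.1% in the second untreated library and reached at most 1.67% in either library with doxycycline.

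Lost regions had high enrichment and close summits in the untreated libraries. Their definition requires a call in both of these, and stronger peaks recurred more often, so the high enrichment is in part built in. The median enrichment of lost regions was 19.5 in the first untreated library and 5.60 in the second, and 9879 of the 10030 (98.5%) were higher in the first. Over these regions the 2 enrichments had a Spearman correlation of 0.786, a description over regions of the same 2 libraries. The 2 libraries placed the summit of a lost region a median of 13 bp apart, and within 50 bp of each other at 87.6% of them. Where a peak of the first untreated library met one of a library with doxycycline, the summits lay a median of 107 bp (187 regions) and 114 bp (283 regions) apart. Summits of the 54 regions called in both libraries with doxycycline lay 81.5 bp apart.

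Most lost regions lay away from gene starts. Of the 10030, 48.2% lay inside a protein-coding gene, 2.95% lay within 1 kb of a gene end, 55.2% between 10 and 100 kb and 24.0% farther than 100 kb. A promoter window was overlapped by 121 lost regions (1.21%), and 133 of 22132 windows (0.601%) held a lost region. Of these 133 windows, from 120 genes, 98 (73.7%, 95% exact interval 65.4% to 80.9%) contained TGANTCA, against 1361 of all 22132 windows (6.15%, interval 5.84% to 6.47%). TGACTCA or its complement TGAGTCA was in 91 of the 133, and TGAATCA or TGATTCA in 17. One copy was found in 80 windows, 2 copies in 16, 3 copies in 2 and none in 35.

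The motif followed enrichment and sat at the summit. Windows with a first-library peak of up to 5-fold enrichment held TGANTCA in 34.0% of 288 cases. The share was 52.4% of 231 windows from 5- to 10-fold, 68.0% of 100 from 10- to 20-fold and 83.0% of 47 above 20-fold. Without the second untreated library, TGANTCA was in 49.0% of the windows with a lost region. In windows with a lost region, the nearest copy lay a median of 3 bp from the first library's summit (82 windows) and 9 bp from the second library's (81 windows), counting summits inside the window. Within 25 bp lay 90.2% and 77.8% of these summits. Other motifs were searched on both strands of the same windows. TGACGTCA, the cyclic AMP response element that ATF and CREB proteins bind, was in 5 of the 133 (3.76%, interval 1.23% to 8.56%) against 2.26% of all windows. TGTTTAC, a forkhead motif, was in 6 (4.51%, interval 1.67% to 9.56%) against 2.85% of all.

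The promoter windows with the strongest lost regions show this gene by gene, with positions counted from the gene start and negative before it. At MBNL2, a splicing regulator, enrichment was 87.6 and 27.6 in the untreated libraries, and the summit at −81 lay beside a copy centred at −83. At an internal start of SPRED2, an inhibitor of Ras signalling, enrichment was 88.4 and 22.8, with copies at −3 and 37 and the summit at 5. KCNMA1, a calcium-activated potassium channel, had 81.4 and 18.6 and a summit on its copy at −119. All 3 windows held 2 copies, one of them within 10 bases of the summit. MSANTD3 had 54.2 and 13.5, with the summit at −157 between copies at −165 and −132. RTN4, a reticulon of the endoplasmic reticulum, had 43.5 and 12.9 and the summit at −12, with a copy at 2. The windows of RAI14 (47.9 and 17.0) and SLFN12 (45.8 and 14.9) had their summits outside, at −590 and −587. That of SLFN12 held a copy at −205, and that of RAI14 held none. EMP3, a membrane protein, had 35.2 and 10.7, its summit at 137 outside the window and no TGANTCA in it. Like that of SPRED2, the windows of KCNMA1, RAI14, MSANTD3 and RTN4 were at internal starts. Their summits lay 287, 30.6, 2.31 and 79.1 kb from the nearest gene end.

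Lost regions overlapped promoter windows of 10 of the 230 genes of the lists described next. Over all 15812 genes with a window they overlapped those of 120. Some list genes, FOSL1 among them, had no window, so the 2 shares do not have the same base. FOSL2 had 9.23 and 3.93 at its own start, with the summit at 12 and a copy at 7. CXCL8, the neutrophil chemokine interleukin 8, had 17.1 and 3.98, with the summit at −41 and its copy at −134. ANKRD1, a YAP target, had 25.3 and 9.63, with the summit at −263, outside the window, and a copy at −192. LAMB3, a chain of an epithelial laminin, had 16.7 and 7.72 with the summit at −62 and a copy at −64. SMAD3, which carries TGF-beta signals to the nucleus, had 16.7 and 6.64, with the summit at −44 and a copy at −53. These 5 windows each held 1 copy. EGFR had 10.0 and 3.98, with its summit at −266, outside the window. TGFBR2 had 8.54 and 2.51 over 2 windows, the one with a copy at −3 having its summit at −1. SMAD7, the inhibitor of the same pathway, had 13.5 and 5.50, and TXNRD1, a thioredoxin reductase, had 4.46 and 2.15, both with no copy. In SMAD3, EGFR, SMAD7 and TXNRD1 the window was at an internal start of the gene.

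The genes of AP-1 themselves were described by regions within 50 kb of the gene. Of all 19974 protein-coding genes, 7710 (38.6%) had a lost region in that range, and 4 of the 7 FOS and JUN genes did. Without the second untreated library 15684 of all genes did. FOSL2 had 2, the promoter region (chr2:28392658-28393048) and one 28.5 kb away with 21.3 and 4.21. FOSL1, the closest relative of FOSL2, had a lost region 15.1 kb away with 12.6 and 4.90. FOSB had 2, with 8.18 and 3.47 at 11.8 kb and 4.05 and 3.20 at 3.52 kb. JUN had one 24.9 kb away with 11.9 and 2.83, among 5 regions of the untreated libraries. JUNB had 1 region and JUND 4, all called only in the first untreated library, the strongest with 12.4 near JUND. FOS had no FOSL2 region in range in any list. No region of a library with doxycycline lay within 50 kb of any of the 7. Over all genes a region called only with doxycycline was that near in 18.6%, so 0 of 7 shows little. The promoter windows of FOS, FOSB, JUN, JUNB and JUND held no TGANTCA and no FOSL2 region.

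Lists of signalling genes were set against the same 38.6%. Of the 10 genes of the EGF receptor and its ligands, 9 had a lost region within 50 kb. EGFR had 6, the strongest with 55.2 and 18.8 inside the gene, and EREG, the ligand epiregulin, had 46.7 and 11.2. ERRFI1, a feedback inhibitor of the receptor, had 34.6 and 9.27 at a distance of 14.2 kb. The relay of Ras and MAP kinases had 4 of 16, a share of 25%, which was below that of all genes. Among them were MAPK9, a JUN kinase (22.6 and 7.21 at 38.6 kb), and MAP2K4 (17.5 and 5.73 inside the gene). Of the feedback inhibitors of that relay, 8 of 14 had one. SPRY4 had 59.7 and 17.8 at 37.6 kb, and DUSP1, a MAP kinase phosphatase, had 3 regions, the strongest with 40.6 and 9.90 at 45.6 kb.

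Proteins that pair with or resemble AP-1 subunits had lost regions at 11 of 15 genes. MAF had 4, the strongest with 55.0 and 16.0 at 6.71 kb. ATF3, a stress-induced partner of JUN proteins, had 31.4 and 9.35 inside the gene. In the TGF-beta pathway 9 of 14 genes had one. SMAD3 had 12, the strongest with 52.8 and 13.2 at 40.7 kb, and TGFBR2, the type II receptor, and TGFB2, a ligand, had 7 each. TGFBR2 reached 40.9 and 15.2 and TGFB2 37.7 and 12.2, both inside the gene. Genes shared as targets by YAP and AP-1 had 9 of 12. TEAD1, the DNA-binding partner of YAP, had 5 regions with up to 41.2 and 12.9, and CRIM1 had 7 with up to 24.4 and 9.18.

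Adhesion and basement membrane genes had lost regions at 15 of 16 genes, with a median of 2 regions per gene against 0 for all genes. ITGB6, an epithelial integrin, had 4 regions with up to 88.7 and 24.8 at 23.4 kb. LAMA3, another laminin chain, had 5 regions with up to 46.9 and 14.2 inside the gene. Matrix proteases and plasminogen regulators had 8 of 17 (47.1%), near the 38.6% of all genes. MMP1, MMP3 and MMP9 were among the 9 without a lost region. MMP13, a collagenase, had 38.8 and 9.54 at 40.5 kb, and TIMP2, an inhibitor of such proteases, had 20.5 and 8.78 inside the gene. Cytokines and chemokines had 7 of 16 (43.8%), also near the share of all genes, and IL1A and IL1B were among the 9 without one. CCL20 had 45.5 and 9.33 at 0.293 kb, and CXCL2 had 35.3 and 11.3 at 17.8 kb.

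The other lists ran from 9 of 14 to 1 of 15 genes, against 38.6% of all genes. Targets of NRF2, an oxidative stress factor known to be active in A549 cells, had 9 of 14, with AKR1B10 at 64.2 and 12.8 (46.4 kb away) and AKR1C1 at 39.1 and 10.97, a region also in range of AKR1C2. Lung epithelial genes had 13 of 25, with SOX9 at 35.6 and 9.38, and KRT8 and KRT18 with 6 regions each, the strongest of them shared. NKX2-1, SFTPA1 and SFTPD had no lost region within 50 kb, and SFTPB, SFTPC and SCGB1A1 had 1 each. Cell cycle genes had 5 of 12 (41.7%), near the share of all genes, with CDK6 holding 7 regions of up to 37.4 and 11.5. Housekeeping genes had 4 of 12, with PGK1, a glycolytic enzyme, at 38.1 and 8.82. Genes of neurons and skeletal muscle had 5 of 15, with SYT1, a synaptic vesicle protein, at 71.5 and 26.0 inside the gene. Blood cell genes had 1 of 15, CD8A, at 28.9 and 8.57.

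Gene length differed between the lists, without following the counts throughout. The median length was 75.9 kb in the adhesion list, 32.1 kb for the EGF receptor and ligands, 31.3 kb for the YAP list and 67.7 kb for the TGF-beta pathway. It was 24.2 kb over all genes, 14.9 kb for blood cell genes, 80.6 kb for the MAP kinase relay, which had the longest genes and 4 of 16 with a lost region, and 3.43 kb for cytokines. The FOS and JUN genes, with a median of 3.40 kb, had 4 of 7. The part of length in the counts was not tested. No list gene had a gained region within 50 kb, where 23 of all genes (0.115%) did. Regions of both untreated libraries and 1 or both libraries with doxycycline lay near 2 of the 230 list genes, LTBP1 and SNAP25, and near 159 of all 19974 genes. Regions called only with doxycycline lay within 50 kb of 3714 genes (18.6%), among them 3 of 16 adhesion genes, 1 of 10 of the EGF receptor list and 6 of 15 genes of neurons and muscle.

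**Figure D4:**
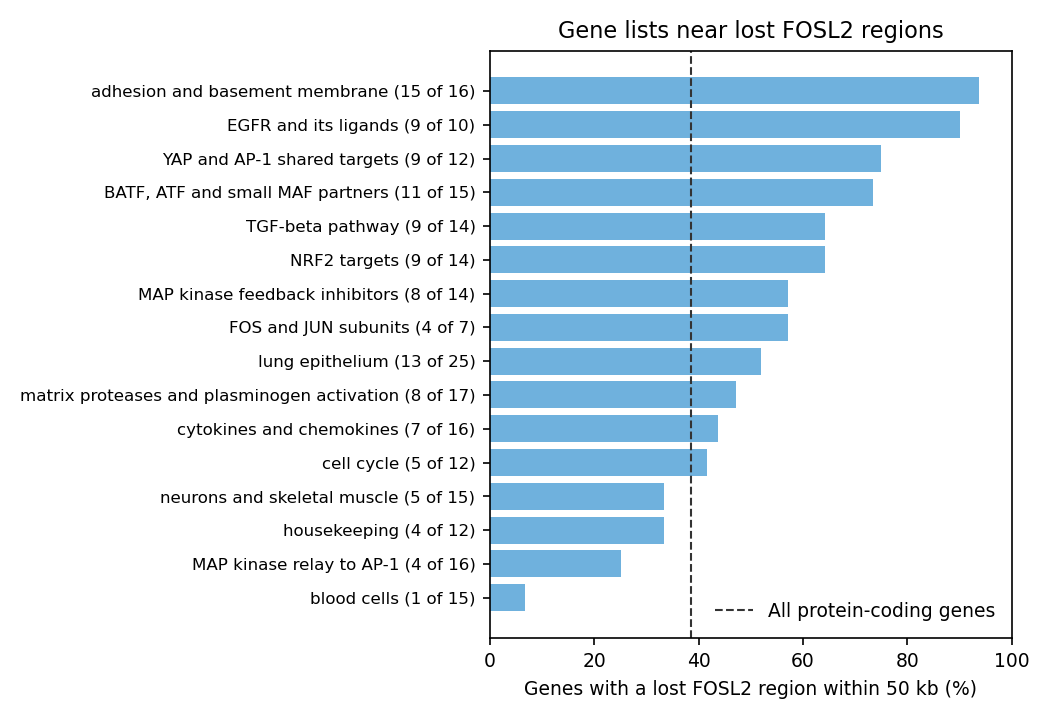
Share of the genes of each list with a lost FOSL2 region within 50 kb (bars, percent), with the counts in brackets. The dashed line is the 38.6% of all protein-coding genes, and the bars run from 1 of 15 blood cell genes to 15 of 16 adhesion genes.

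Inside genes, lost regions were most numerous in long genes. A lost region lay inside 2966 genes (14.8%). PDE4D, a cyclic AMP phosphodiesterase, held 25 over 1553 kb, PARD3, a cell polarity protein, 16 over 706 kb, and NAV2 and NRG1 13 each. AUTS2 held 12, ASIC2, PRKCA and RAD51B 11 each, and ABTB2 and AOPEP 10 each. ABTB2 was the shortest of these with 207 kb. Per length, among genes of at least 20 kb, LETM2 had 11.1 per 100 kb. ANXA2, a membrane-binding annexin, had 9.84 (5 regions over 50.8 kb), ALDH3B1 9.65, ARL6IP5 9.45 and SDC4, a cell surface proteoglycan, 8.64. ADGRF4 had 8.53, SULT2B1 8.47, IGFL4 7.80, HHIPL2 7.74 and SERINC3 7.74.

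A larger share of lost regions than of regions of 1 library overlapped FOXA1. FOXA1, a forkhead pioneer factor, was called in both libraries of unmodified A549 cells at 45.6% of lost regions (interval 44.6% to 46.6%). The share was 19.3% (interval 18.9% to 19.7%) for regions of the first untreated library alone, 0.922% for those of the second alone, and 0.566% and 0.449% for those of the first and second library with doxycycline alone. In the A-Fos line, FOXA1 was called in both libraries without doxycycline at 1642 lost regions (16.4%) and in both with it at 714 (7.12%). The FOXA1 lists differ in length. Lost regions were also wider, at a median of 547 bp against 324 bp for regions of the first untreated library alone. The other classes of 1 library had 268 to 275 bp. In the first untreated library, median enrichment was 19.5 at lost regions and 5.37 at its own. The part of these differences in the shares was not tested. Histone marks were measured in unmodified, untreated A549 cells only, and their shares ran the other way. H3K9me3, a mark of silent chromatin, was called in both libraries at 2.12% of lost regions, at 4.54% of regions of the first untreated library alone, and at 20.4%, 17.8% and 16.1% of regions of the second untreated, first treated and second treated library alone. H3K27me3, the mark of Polycomb, was at 1.84% of lost regions, at 6.99% of regions of the first untreated library alone, and at 23.4%, 21.3% and 23.1% of the other classes in the same order.

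The 10 kept regions are described in 2 sets formed after their values were seen. In 4 of them the untreated libraries were well above those with doxycycline. Near PDE3A (chr12:20212572-20213172) enrichment was 59.3 and 23.8 without doxycycline and 3.78 and 3.70 with it. Inside LYSMD2 (chr15:51726189-51727030) it was 50.4 and 18.5 against 2.61 and 3.53. Inside ST8SIA1 (chr12:22282185-22282713) it was 31.5 and 8.999 against 3.73 and 3.24, and near GKAP1 (chr9:83824583-83825459) 11.2 and 4.09 against 3.95 and 3.06. In the latter region the lower untreated value was close to the higher value with doxycycline.

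In the other 6 kept regions the 4 libraries had like values. The region near TUBA3C (chr13:18211824-18212430), 961 kb from the gene, had 3.48 and 2.68 without doxycycline and 4.29 and 3.37 with it. Its −log10 q was 53.5 and 36.8 without and 89.4 and 53.5 with doxycycline. The 2 regions near CWH43 (chr4:49105418-49106048 and chr4:49149455-49149794) had 2.53 and 2.10 against 2.75 and 2.64, and 2.05 and 1.86 against 2.91 and 1.83. These 3 were also called in both FOXA1 libraries with and without doxycycline. Near UQCRFS1 the values were 4.17 and 3.45 against 2.97 and 4.40, near MEX3B 4.57 and 3.05 against 3.86 and 3.41, and near FOXD4L6 3.29 and 3.28 against 3.63 and 3.49. In every one of these 6 regions the groups overlapped or the values with doxycycline were higher.

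Calls with doxycycline at sites of both untreated libraries were most common at both ends of strength. Of the 161 such regions, 151 had a call in only 1 library with doxycycline. They made up 5.29% (interval 4.00% to 6.85%) of the weakest decile of the 10191 regions, between 0.491% and 0.883% of deciles 3 to 8, 1.96% of decile 9 and 2.85% (interval 1.91% to 4.06%) of the strongest. The strongest are named here after their values were seen. A region inside SLX4IP (chr20:10511354-10512016) had 87.0 and 33.3 without doxycycline and 4.62 in the first library with it. One 117 kb from MTAP (chr9:21684718-21685377) had 80.3 and 28.0 without and 4.27 in the second library with it. One inside ANKFY1 (chr17:4229707-4230640) had 86.5 and 24.9 without and 5.08 in the first library with it. One inside SRGAP1 (chr12:64088296-64089113) had 71.1 and 28.6 without and 4.802 in the first with it. The highest enrichment with doxycycline at any of the 161 was 5.08 in the first and 6.78 in the second library.

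The 25 gained regions were weak. Their enrichment ran from 2.58 to 4.83 in the first and from 2.73 to 6.02 in the second library with doxycycline. The region inside RYR3, a calcium release channel (chr15:33467250-33467632), had 4.83 and 6.02 and overlapped both histone marks of the unmodified cells. The one inside TMBIM4 (chr12:66139489-66139953) had 4.39 and 3.76, and the one 19.8 kb from ATP1B1, a sodium pump subunit (chr1:169086631-169086921), had 3.70 and 4.02. ASAP1 had 3.95 and 3.70, NDN 4.17 and 3.51, DCAF13 3.29 and 4.52, BMPER 3.95 and 3.51, and KBTBD2 3.14 and 4.71. Of the 25, 12 lay inside a gene, 11 overlapped H3K9me3 and 7 overlapped H3K27me3 of the unmodified cells. None of the 25 (exact upper bound 13.7%) overlapped a promoter window or a FOXA1 region called in both libraries of a group.

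Regions called in 1 library with doxycycline resembled those called in the second untreated library alone. The 4679 regions of the second and the 1590 of the first library with doxycycline had median enrichments of 3.513 and 3.509, and the 4231 of the second untreated library 3.43. The median widths were 274, 275 and 268 bp, against 547 bp for lost regions. Promoter windows were overlapped by 0.171%, 0.0629% and 0.142% of them. None of the promoter windows under these 3 kinds (9, 1 and 6 windows) held TGANTCA. At PFKM, a phosphofructokinase of glycolysis, the printed window belongs to the 9. So few windows cannot show a share below that of all promoters.

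The 3 kinds also shared their chromosomes. On chromosomes 4, 6, 13, 18, 21, 22 and X lay 16.5% of lost regions (interval 15.8% to 17.3%) and 19.9% of protein-coding genes. On the same 7 chromosomes lay 1.06% of regions of the second untreated library alone (interval 0.777% to 1.42%), and 1.45% and 2.54% of those of the first and second library with doxycycline alone. Of the first untreated library's own regions 16.8% lay there. On chromosomes 8, 12, 15 and 20 lay 20.7% of lost regions and 21.2% of the first untreated library's own, against 42.7%, 40.9% and 33.8% of these 3 kinds and 14 of the 25 gained regions. Both chromosome sets were chosen after the values were seen. Over the 23 chromosomes the shares of the second untreated library's own regions had a Pearson correlation of 0.986 with those of the first and 0.938 with those of the second library with doxycycline. The correlation of lost regions with the same untreated class was 0.556, and with the first untreated library's own regions 0.991. These are descriptions over chromosomes that share cell line and build.

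**Figure D5:**
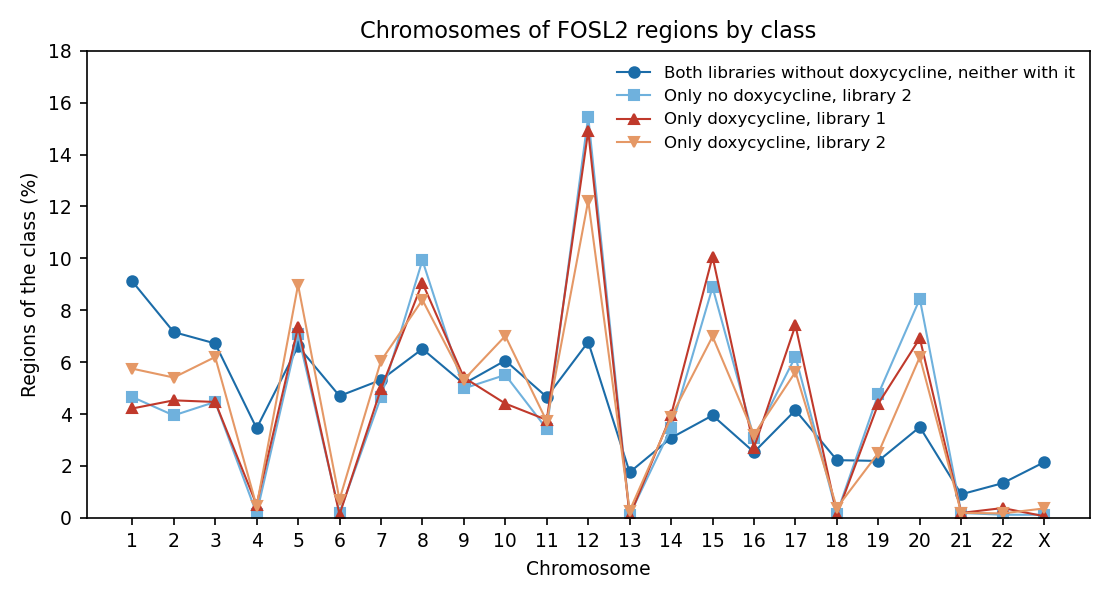
Share of the regions of each class on each chromosome (vertical axis, percent), for lost regions and for regions called only in the second untreated library or in 1 library with doxycycline; regions of the first untreated library alone are not drawn. On chromosome 12 the 3 drawn single-library classes lay at 15.5%, 14.9% and 12.2% against 6.78% of lost regions, and on chromosomes 4, 6, 13, 18, 21, 22 and X they lay near 0.

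Weak peaks of the first untreated library had the same chromosomes. In its weakest decile 5.35% of peaks lay on the 7 chromosomes and 33.9% on the 4, and in its strongest decile 19.2% and 19.2%. FOXA1 regions of 1 library in the A-Fos line showed it in 3 of 4 libraries, with 6.06%, 5.98% and 6.77% on the 7 chromosomes against 17.7% in the second library without doxycycline. FOXA1 regions called in all 4 libraries had 15.9% there. The number of copies of each chromosome was not measured, and the inputs were not analysed here, so their part in these shares was not tested.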

How the data were processed

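The 4 FOSL2 peak lists, 1 per library, were used as deposited; replicates were not pooled for calling. Tools named in the submitters' processing notes are fastp 0.23.2, BWA 2.2.1, SAMtools 1.8, DRAGEN, deepTools and MACS2, and the build is hg38. Settings were not given in the sources used here. Each deposited peak has a fold enrichment (a linear ratio to background) and −log10 values for p-value and q-value from the authors' caller. Every listed q was at or below 0.05. The lists hold no read counts, so the depth behind a call is unknown, and differing depth could lengthen a list. The deposited fold was used only within a list or side by side.

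Peaks were merged at 1 bp of overlap. Gene intervals, without strand, and promoter windows came from RefSeq tables (GRCh38.p14; 15812 of 19974 protein-coding genes had a window, 22132 windows), and all 230 genes of the 16 lists were matched. FOXA1 and histone overlap meant at least 1 bp with peaks of both libraries of a group. Because the gene table gives no strand, windows around starts were replaced by gene ends, and motifs around summits outside promoters were not searched. Tests were exact permutations over libraries, and p-values measure only the spread between these libraries. Intervals are 95% Clopper-Pearson. Functions that merge peaks, read presence in the lists and look up overlaps were tested on simulated data, and those for permutations and Clopper-Pearson intervals were not (Python 3.11.15, numpy 2.4.6, pandas 2.3.3, scipy 1.17.1, matplotlib 3.10.9).

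The regions and lists were chosen with earlier results of these data known. Named genes were the FOS and JUN genes, the 8 strongest lost promoter regions, the 10 genes with most lost regions and the 10 densest of at least 20 kb, all kept and 8 gained regions, and up to 5 genes per list; fewer are printed for some lists, and some genes are not reported here. Alternatives were a −log10 q of at least 2, all contigs, other overlaps and windows, lists of equal length, each library left out, and a replicate block.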

Additional observations from a re-analysis of the deposited data

Results flagged for a closer look

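Peaks on contigs outside chromosomes 1 to 22 and X, which no comparison used, took a larger share of the lists with doxycycline. They made up 4.33% of the first list with doxycycline (84 peaks) and 1.48% of the second (79 peaks), against 0.402% and 0.842% without it (184 and 126 peaks). The number of such peaks was thus lower with doxycycline, and the share higher. With these contigs included, 34 regions were called in all 4 lists.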

How the results depend on the processing

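None of 79 alternative values was labelled reversed, but only the tested measures per library could get that label. Counts of regions and genes and the share of promoters could only stay or move. Of the 79, 16 counts or shares moved by more than the limits set for them (1.5 times for a count). The other 63 did not. A tested measure was held only to its direction, so that some of these values differ by more than 1.5 times. The share of peaks at gene ends differed by −4.80 points within 5 kb of an end. Leaving out each library in turn gave 10079 to 45139 lost, 17 to 111 kept and 33 to 4705 gained regions, 7726 to 15684 genes with a lost region, and TGANTCA in 49.0% to 74.2% of promoters with one. The highest counts of lost regions (45139) and genes (15684), and the 49.0%, came without the second untreated library, since every region of the first without a call with doxycycline then counts as lost. The highest counts of kept and gained regions (111 and 4705) came without the first library with doxycycline. With lists shortened to the 1854 strongest peaks of each, 1264 regions were lost and 0 kept, and 1262 genes had a lost region. At a −log10 q of at least 2, 6 regions were kept and 12 gained. With all contigs 34 were kept, and within 10 kb 4042 genes had a lost region. The ratio of peak numbers ran from 0.0614 to 0.24, the ratio of covered lengths from 0.0472 (without the second library with doxycycline) to 0.221 (without the first untreated library). The difference in median enrichment ran from −2.88 without the second untreated library to −0.99 without the first. A replicate block over the same-numbered pairs gave a ratio of peak numbers of 0.12 and of covered lengths of 0.0986, a difference in median enrichment of −1.94, and −3.77 and −1.56 percentage points inside genes and at gene ends; the exact p of 2 pairs cannot be below 0.5. Deviations of same-numbered libraries had a correlation of 0.164 over 56430 regions. Presence over a union of lists of unlike length in part sets this value, so it cannot show whether the numbers are pairs. The labels name no shared batch, so the numbers were not taken as pairs. Whether same-numbered libraries shared a batch was not tested. Depth is unknown, so a region without a call may be bound below the threshold.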
